A study of Rattus norvegicus with 18 samples.

Results

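The genes described here encode the protein subunits of the 5 oxidative phosphorylation complexes that are read from nuclear DNA. A probe set was taken where the array annotation gave it to 1 gene whose symbol begins with Nduf, Cox4 to Cox8, Uqcr or Atp5 or is Sdha, Sdhb, Sdhc or Sdhd, and assembly factors were left out. This gave 80 genes on 89 probe sets, of 14217 genes with a probe set of their own on the array. Complex I held 36 of them, complex II 4, complex III 7, complex IV 17 and the ATP synthase, complex V, 16. Their messenger RNA was measured in perinatal lung of Wistar rats, by expression array, as total RNA and as RNA from large polysomes, the gradient fractions with more than 7 ribosomes on an mRNA. Lungs came from fetuses at fetal day 19 (FD19) and fetal day 22 (FD22), delivered by Caesarean section, and from newborns 5 h after vaginal birth (P1). The labels name no drug or genetic change in any group. Each stage had 3 lysates, each from a litter of its own, and each lysate gave 1 total and 1 polysomal array, so 18 arrays formed 6 groups of 3. The material was whole lung, in which fewer cells of a type and less RNA per cell cannot be told apart.

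Complexes I to IV form the respiratory chain of the inner mitochondrial membrane: complexes I and II take electrons from NADH and succinate, complex III passes them to cytochrome c, and complex IV, cytochrome c oxidase, hands them to oxygen. Complexes I, III and IV pump protons while they do so, and the ATP synthase lets the protons back through its membrane part to make ATP in its F1 head. Several subunits of complex IV exist as tissue isoforms, among them heart and skeletal muscle forms, and the developing lung needs ATP for surfactant synthesis and for ion transport at birth.

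Of the 80 genes, 79 passed the filter on low values, which kept a probe set with a signal above 40.8 in at least 3 arrays. The exception was Cox7b2, the testis form of subunit 7b, with signals of 4.4 to 24.7. Another member, Cox6c-ps1, is a transcribed pseudogene in RefSeq. The probe sets of Atp5mc1, Atp5mc2, Cox7a2, Uqcrb, Ndufs5 and Ndufa10 were shared with other genes and are not reported. Signals are linear intensities, differences are on the log2 scale, errors of differences are standard errors (SE) from 1 limma fit of all arrays, and a gene is "called" at a Benjamini-Hochberg adjusted p under 0.05 over all 21675 probe sets kept. Values of single arrays are given in the order of lysates 1, 2 and 3. Levels were compared only within a probe set.

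The arrays had median signals of 51.6 to 73.5. The lung label was borne out by the alveolar type II list, all of whose 7 genes were detected. Its summed signal was 11866 to 12707 in total RNA at FD19 and 22899 to 28166 at FD22. Cell composition markers moved over the same interval: 6 of 7 type II genes and 3 of 4 ciliated cell genes were called higher at FD22 in total RNA, while 4 of 6 erythroid genes and 3 of 10 pericyte and smooth muscle genes were called lower. The part of these shifts in the results on the oxidative phosphorylation genes was not tested.

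Between FD19 and FD22 the total RNA of these genes moved mostly downwards, with losses in every complex, while the only members called higher were the muscle isoforms Cox7a1 and Cox8b. In total RNA 20 of 79 members were called lower and 2 higher at FD22, against 10.3% lower and 9.68% higher among all 11590 genes tested. The median difference was -0.32, against -0.01 for all genes, and 71 of 79 members had a value below 0. By complex, 7 of 36 genes fell in complex I (median -0.29), 1 of 4 in complex II (-0.35), 2 of 7 in complex III (-0.32), 2 of 16 in complex IV (-0.10) and 8 of 16 in the ATP synthase (-0.42). The count was 14 with quantile normalization, where complex IV had no gene lower, and 12 without the variance trend. It also depended on single libraries, at 7 without FD19 lysate 1, 14 without FD19 lysate 2, 10 without FD19 lysate 3 and 14 without FD22 lysate 1. Without all arrays of lysates numbered 1 it was 5 (2 higher and 3 lower), with a median of -0.24.

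Atp5f1a, the alpha subunit of the F1 head, had total RNA signals of 1989, 1720 and 1699 at FD19, 945.5, 1209 and 1008 at FD22 and 1216, 1066 and 1008 at P1. All FD19 arrays lay above all later ones. The difference between FD22 and FD19 was -0.77 ± 0.14 (SE, n = 3 against 3 lysates, adjusted p = 0.000839), a 1.71-fold lower signal.

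Ndufab1, the mitochondrial acyl carrier protein that is also a complex I subunit, had 721, 651 and 738 at FD19, 406, 468 and 321 at FD22 and 341, 346 and 367 at P1. The FD19 arrays again stood apart from the rest. It was 1.77-fold lower at FD22, by -0.83 ± 0.21 on the log2 scale (adjusted p = 0.00908). Atp5f1a, Ndufab1 and Cox7a1 were called in every one of the 20 alternative settings run.

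Ndufa11, a membrane arm subunit of complex I, gave 1396, 1307 and 1151 at FD19, 730, 850 and 709 at FD22 and 551, 606 and 642 at P1. Ndufa12, another accessory subunit, gave 1018, 1141 and 1035 at FD19, 600, 783 and 669 at FD22 and 621, 579 and 641 at P1. Neither gene had overlapping arrays between FD19 and FD22. The differences were -0.75 ± 0.22 for Ndufa11 (adjusted p = 0.0223) and -0.64 ± 0.15 for Ndufa12 (adjusted p = 0.00536). Without the arrays of lysates numbered 1 neither was called (highest adjusted p over the alternatives 0.0859 and 0.0656), and Ndufa11 was also lost without FD19 lysate 1 or FD19 lysate 2.

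The other called members are listed in full, most of them after their values were seen. In complex I, Ndufa4, Ndufc1, Ndufs1 and Ndufs3 fell by 0.62, 0.55, 0.47 and 0.39 on the log2 scale. Ndufs1 and Ndufs3 belong to the conserved core that carries electrons, and Ndufa4 has been reassigned by biochemical work to complex IV. In all counts by complex given here Ndufa4 and Ndufa4l2 stand in complex I, by their symbols. In complex II, Sdhb, the iron-sulfur subunit, fell by 0.35. In complex III, Uqcrfs1, the Rieske iron-sulfur protein, fell by 0.50 and Uqcrq, a small accessory subunit, by 0.59. In complex IV, Cox7b fell by 0.46 and Cox6c by 0.36. In the ATP synthase, the decreases were 0.57 for Atp5f1d and 0.42 for Atp5f1c of the F1 part, and 0.48 for Atp5po and 0.41 for Atp5pb of the stator stalk. In the membrane part they were 0.56 for Atp5me, 0.43 for Atp5mk and 0.43 for Atp5mc3. Atp5mc3 encodes the c subunit of the rotor ring.

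Core and catalytic members outside that list pointed the same way without passing the threshold. Sdha, the flavoprotein of complex II, differed by -0.42 ± 0.17 (adjusted p = 0.104), Uqcrc1 by -0.39 ± 0.14 (0.0536) and Atp5f1b, the catalytic beta subunit, by -0.30 ± 0.11 (0.0751). Cox4i1, the ubiquitous form of subunit 4, stayed closest to 0 of these, at -0.05 ± 0.11 (0.827). Cox4i2, its lung-enriched isoform, differed by 0.34 ± 0.34 (0.567). The widest difference below 0, that of Ndufb8 at -1.25 ± 0.58, had an adjusted p of 0.157. The atypical isoform Ndufa4l2 differed by 0.27 ± 0.27 (0.567).

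Cox7a1, the heart and muscle form of subunit 7a, went the other way. Its total RNA signals were 59.0, 88.8 and 69.8 at FD19, 141, 169 and 185 at FD22 and 136, 156 and 170 at P1. The groups FD19 and FD22 did not overlap, and the P1 arrays stayed in the range of FD22 or just under it. The signal was 2.20-fold higher at FD22, by 1.14 ± 0.20 on the log2 scale (adjusted p = 0.000462). In polysomal RNA it read 60.5, 61.5 and 98.0 at FD19 and 199, 185 and 158 at FD22, a difference of 1.27 ± 0.20 (adjusted p = 0.000201).

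Cox8b, the muscle form of subunit 8, was near the detection limit and uneven. Total RNA gave 53.4, 7.0 and 10.9 at FD19, 60.5, 31.5 and 152.8 at FD22 and 35.4, 51.1 and 45.3 at P1. FD19 lysate 1 lay above FD22 lysate 2, so the groups overlapped. The difference was 1.67 ± 0.55 (adjusted p = 0.0448), and the call was lost in 12 of the 19 alternatives that could be run for it. In the same total RNA arrays atrial natriuretic peptide, Nppa, read 456, 255 and 247 at FD19, 465, 112 and 850 at FD22 and 97.0, 73.5 and 145 at P1. The cardiac myosin Myh6 read 1157, 477 and 611, then 528, 302 and 1063, then 445, 303 and 339. At FD19 lysate 1 was the highest for Cox8b and for every heart and striated muscle gene that passed the filter. At FD22 the highest Cox8b array, lysate 3, was also the highest for Nppa, Myh6 and Myl7 (556, 271 and 703). It was not the highest for Tnnt2 (357, 147 and 296). For the ventricular light chain Myl2, near the detection limit, it was the lowest (41.8, 38.4 and 9.1). At P1 the highest Cox8b array was the lowest for Nppa and Myh6. Of the heart and striated muscle list, 15 of 19 genes on the array passed the filter, with Myh7, Myl3, Mb and Myh8 below it. Its summed total RNA signal ranged from 2148 to 4929 at FD19, 1605 to 4632 at FD22 and 1424 to 2584 at P1. Between FD19 and FD22 limma called 0 of the 15, in total and in polysomal RNA, and 0 had an unadjusted p under 0.05. Of the brown fat markers Ucp1, Elovl3 and Adipoq were below the filter, and 1 of the 2 above it was called higher at FD22. The part of heart or fat tissue in the Cox7a1 and Cox8b values was not tested. The third muscle form, Cox6a2, differed by 0.19 ± 0.35 (adjusted p = 0.787).

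**Figure D1:**
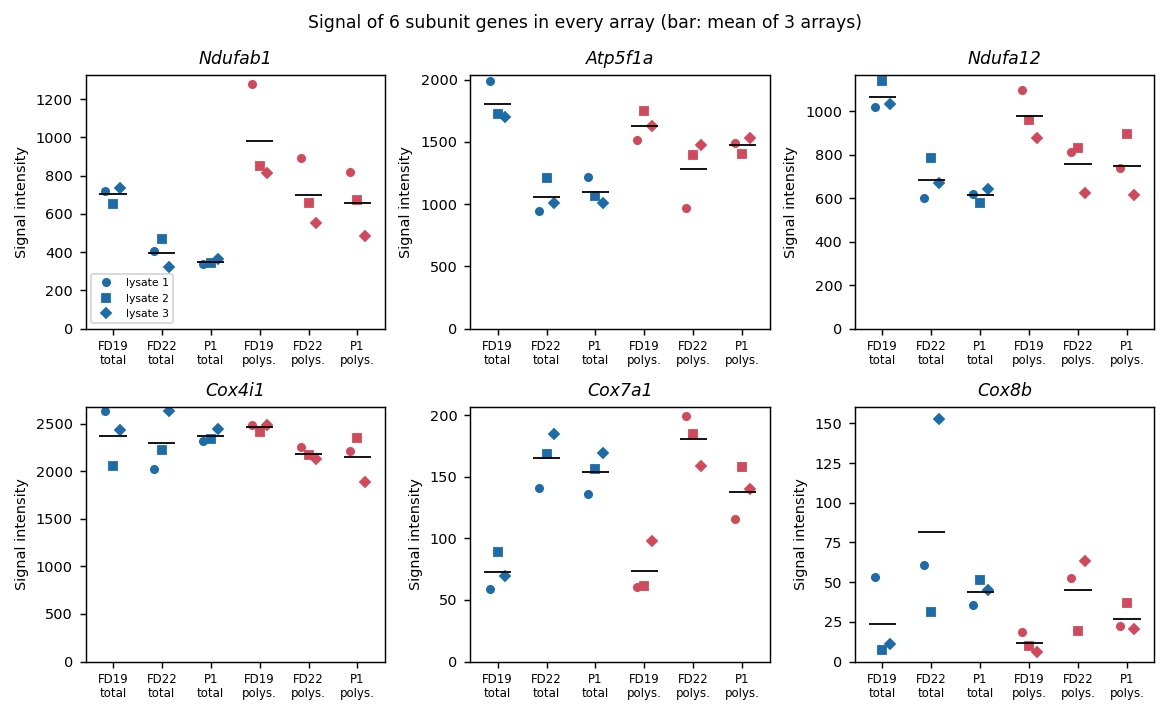
Signal intensity (linear, vertical axis from 0) of member genes in total and polysomal RNA at each stage. Ndufab1, Atp5f1a, Ndufa12, Cox7a1 and Cox8b were called between FD19 and FD22 in total RNA, and Cox4i1 was not. Each point is 1 array and each bar the mean of 3 arrays. Atp5f1a total RNA falls from 1699 to 1989 at FD19 to 945.5 to 1209 at FD22, whereas Cox7a1 rises from 59.0 to 88.8 to 141 to 185.

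Promoter sequence was looked at because nuclear respiratory factor 1 (NRF1), ETS family factors such as GABP, and YY1 are textbook regulators of these genes. RefSeq promoter windows of 300 bases (250 before and 50 after the start, build GRCr8) were matched for 72 of the 80 genes, and each motif was searched on both strands. The NRF1 motif, GCGCA and GCGC with any base between them, was present in 13 of 72 windows, 18.1%, against 9.74% of the windows of all genes tested and 4.71% of all 27457 windows. The ETS motif CCGGAAGT was present in 8 (11.1%, against 8.0% and 4.01%). The YY1 motif AAGATGGC was present in 16 (22.2%, against 5.44% and 3.44%), and in 11 of these it lay after the start on the gene's own strand. No window had a C followed by 4 pyrimidines at its start, against 2.69% of the tested genes. Of the 19 members with a window that fell at FD22, 9 held the NRF1 or the ETS motif, as did 12 of the 50 that were not called and 0 of the 2 that rose. The YY1 motif went the other way, in 2 of the 19 that fell, 14 of the 50 not called and 0 of the 2 that rose. These are matches of letters only, and binding was not measured.

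The 120 bases before the start are shown for 3 genes that fell and held the NRF1 motif and for both genes that rose and did not. They were chosen after their values were seen. Capitals mark the NRF1 motif, overlapping matches included. Ndufa11 lies at chr9:1637494-1637613 (plus strand), Ndufa12 at chr7:30658196-30658315 (plus), Atp5po at chr11:44657484-44657603 (minus), Cox7a1 at chr1:94569096-94569215 (plus) and Cox8b at chr1:205408274-205408393 (minus).
Ndufa11: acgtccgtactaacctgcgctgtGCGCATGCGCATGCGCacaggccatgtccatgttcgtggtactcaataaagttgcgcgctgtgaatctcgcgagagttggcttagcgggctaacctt
Ndufa12: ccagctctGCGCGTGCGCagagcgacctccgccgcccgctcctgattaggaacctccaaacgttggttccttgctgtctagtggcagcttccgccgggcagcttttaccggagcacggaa
Atp5po: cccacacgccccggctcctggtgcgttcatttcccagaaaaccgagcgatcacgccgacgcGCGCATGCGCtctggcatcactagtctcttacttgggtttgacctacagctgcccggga
Cox7a1: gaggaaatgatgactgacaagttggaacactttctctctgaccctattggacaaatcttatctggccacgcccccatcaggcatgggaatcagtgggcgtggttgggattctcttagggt
Cox8b: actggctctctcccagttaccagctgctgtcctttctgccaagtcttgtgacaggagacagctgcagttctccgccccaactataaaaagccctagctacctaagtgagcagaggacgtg

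In large polysomes fewer members passed the test over the same interval. Between FD19 and FD22 the main model, which does not pair the arrays, called 4 members lower and 1 higher in polysomal RNA. These shares lay below the 9.56% and 10.1% of all genes in that model, and the median was -0.18 against -0.02. Atp5po, the stalk protein that joins the F1 head to the membrane part, read 2100, 2032 and 1965 at FD19 and 1525, 1592 and 1515 at FD22. The groups did not overlap, and the difference was -0.40 ± 0.13 (adjusted p = 0.0454). Sdhb read 1239, 1394 and 1264 against 962, 1034 and 966, with a difference of -0.39 ± 0.11 (adjusted p = 0.0178). Atp5f1d read 1347, 1165 and 1099 against 838, 858 and 796, with a difference of -0.53 ± 0.13 (adjusted p = 0.0103). The groups of these genes were also separate. Ndufa3 was the remaining gene called lower, at -0.72, with overlapping arrays, and Cox7a1, given above, the gene called higher. The call of Atp5po was lost in 10 of 20 settings and that of Sdhb in 4 of 20. Deviations of same-numbered polysomal arrays at FD19 and FD22 correlated at 0.226 to 0.498, and with the replicate number as a block 16 members were called, 4 higher and 12 lower. The shares of all genes with that block are not given here, so the members were not set against them. The count was 3 with no filter, 3 without the variance trend and 3 with the arrays of these groups alone in the fit. It was 3 without FD19 lysate 1, 2 without FD19 lysate 2, 9 without FD22 lysate 1 and 3 without all lysates numbered 1. A second probe set of Atp5me was called higher in this comparison (1.22 ± 0.39, adjusted p = 0.0383), whereas its brighter probe set, which stands for the gene, differed by -0.23 ± 0.15 (0.329).

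Across birth, from FD22 to P1, total RNA of these genes showed no call. In large polysomes a group made up mostly of complex I accessory subunits, with Uqcrq, was called lower, in a count that varied between settings. The change of the polysomal minus total difference over this interval, given below, was called for no member. In total RNA limma called 0 of 79 members, against 2.31% lower and 2.62% higher among all genes. The median was -0.09 against -0.05, and 3 members had an unadjusted p under 0.05, all of them lower. No alternative called a member in this comparison. In polysomal RNA 10 members were called lower and 0 higher, against 5.79% and 4.74% of all genes. The median was -0.13 against -0.03. Of the 10, 7 were accessory subunits of complex I, 1 was in complex III and 2 in the ATP synthase. The arrays of FD22 and P1 were separate for all 10. These genes were called from the same arrays, so the separation is no further support.

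Uqcrq, a small subunit of complex III, had polysomal signals of 948, 907 and 517 at FD22 and 403, 385 and 339 at P1, a difference of -1.02 ± 0.18 (adjusted p = 0.00224). Its total RNA over the same stages read 709, 886 and 812 and then 678, 752 and 791, which overlapped. Ndufa2 had polysomal signals of 730, 566 and 359 at FD22 and 264, 269 and 250 at P1, a difference of -1.01 ± 0.20 (adjusted p = 0.0034). FD22 lysate 3 was the lowest of its group for both genes and still lay above every P1 array.

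Ndufa1, a membrane arm subunit, had polysomal signals of 1863, 1200 and 907 at FD22 and 799, 693 and 648 at P1 (-0.83 ± 0.19, adjusted p = 0.01). Ndufc1 read 582, 406 and 278 at FD22 and 208, 227 and 208 at P1 (-0.90 ± 0.19, adjusted p = 0.0055). The polysomal arrays of FD22 spread widely for these genes, with lysate 1 highest and lysate 3 lowest. The others were Ndufb2, Ndufb1, Ndufb5, Ndufs6, Atp5pf and Atp5f1e, which fell by 0.82, 0.66, 0.61, 0.60, 0.60 and 0.50 on the log2 scale. The count was 6 without FD22 lysate 2, 17 without FD22 lysate 3, 6 without P1 lysate 3 and 4 without all lysates numbered 1, where 1 gene was higher and 3 lower and the median was 0.02. With the arrays of these groups alone in the fit it was 1.

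**Figure D2:**
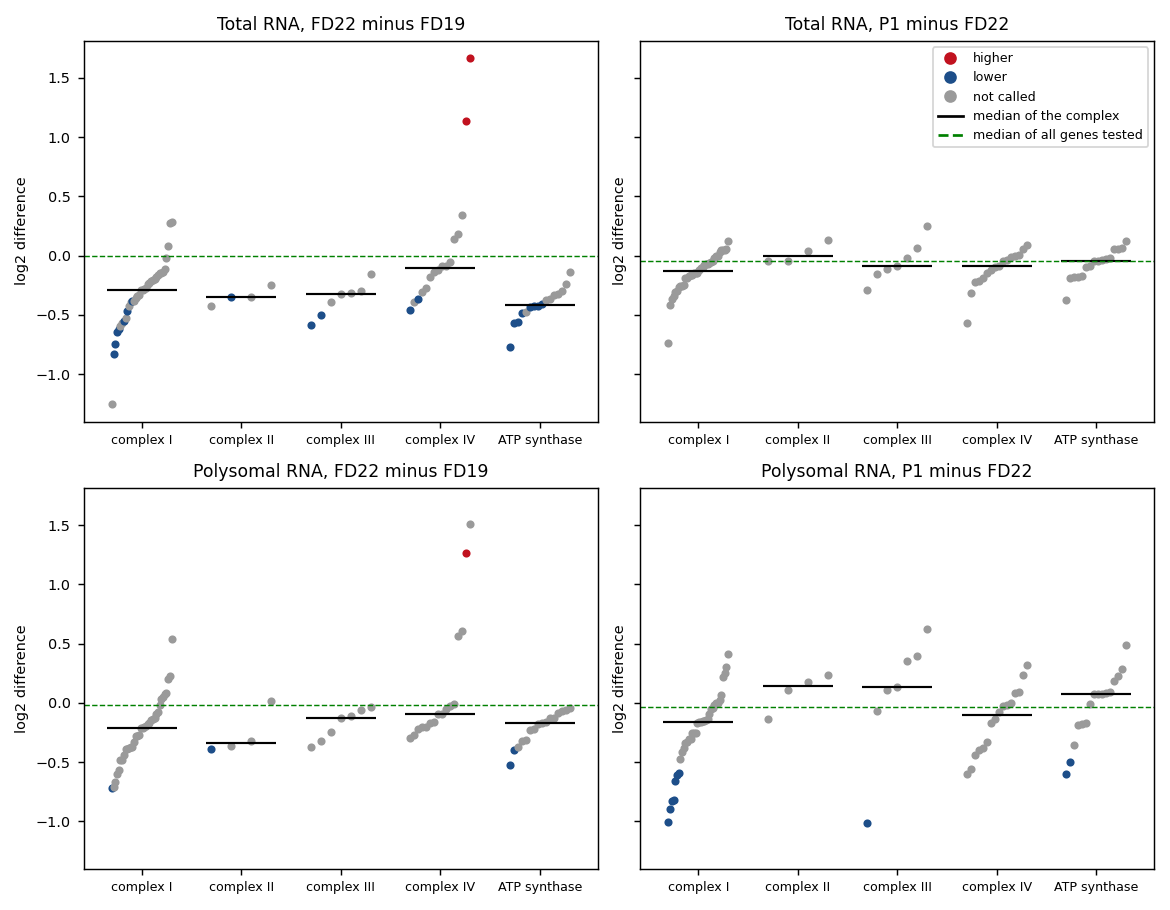
Log2 differences between stages (vertical axis) for every tested member, by complex, in total and in polysomal RNA; each point is 1 gene and the dashed line is the median of all 11590 genes tested. In total RNA from FD19 to FD22 all 16 ATP synthase genes lie below 0, and in polysomal RNA from FD22 to P1 the 10 members called lower are led by Uqcrq at -1.02.

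The polysomal signal was then set against total RNA of the same stage. Over the 3 stages 24 members were higher and 29 lower in large polysomes than in total RNA, against 24.9% and 22.2% of all genes, with medians of -0.04 and 0.00. Complex II, the core of complex III and the F1 part and stator stalk of the ATP synthase held called members mostly on the high side, while the small subunits of complex III held them on the low side in each scaling run. Complex IV, counted without Ndufa4 and Ndufa4l2, had 0 genes higher and 8 lower. It had 1 higher and 7 lower with quantile normalization, and 1 higher and 5 lower with median centring. Marker genes moved in this contrast too: 6 of 6 erythroid genes were lower (median -1.11), and 4 of 7 alveolar type II genes were higher and 2 lower. Their part in the members' values was not tested. Of the 53 called members, 32 had all 9 lysates on the same side. Since each array is scaled to the same mean, the difference is relative to the other mRNAs of the array. Centring each array on its median instead moved the median of all genes to 0.20 and turned the split to 31 higher and 16 lower, with complex I at 17 higher and 4 lower in place of 13 and 12. The grouping of subunits by role was written after the values were seen, and its counts are descriptions. Large polysomes are the fractions with more than 7 ribosomes on an mRNA, and the part of protein length in these values was not tested.

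Ndufs4, an accessory subunit of the electron input arm of complex I, had the widest difference above 0. At FD19 its total RNA read 267, 300 and 295 and its polysomal RNA 987, 1248 and 773. At FD22 they read 227, 241 and 235 against 761, 507 and 606, and at P1 217, 181 and 189 against 1182, 345 and 337. Polysomal exceeded total signal in 9 of 9 lysates, and P1 lysate 1 stood far above the other P1 lysates. The mean difference was 1.50 ± 0.18 (adjusted p = 3.21e-06), a 2.84-fold higher signal, and by stage it was 1.76, 1.38 and 1.38.

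Ndufs3, a core subunit of the same arm, was also higher in polysomes. Its total RNA was 391, 383 and 327 at FD19, 280, 299 and 258 at FD22 and 270, 264 and 244 at P1. The polysomal signals were 630, 635 and 606, then 537, 505 and 493, then 528, 633 and 460. Every polysomal array exceeded every total array, and the mean difference was 0.89 ± 0.07 (adjusted p = 3.01e-08). Of 6 core genes of complex I, 4 were called higher and 1, Ndufs1, lower (-0.22). The accessory subunits divided, with 8 of 28 higher and 10 lower. These splits depend on the scaling: with median centring complex I as a whole, given above, held more genes higher and fewer lower. Ndufb6 (0.84), Ndufc2 (0.77), Ndufab1 (0.70) and Ndufa9 (0.65) were among the former and Ndufb1 (-1.02), Ndufc1 (-0.79) and Ndufa1 (-0.68) among the latter.

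In complex II both membrane anchors and the iron-sulfur subunit were higher in polysomes. Sdhd, an anchor that binds ubiquinone, read 961, 743 and 844 in total and 1617, 1386 and 1338 in polysomal RNA at FD19, with no overlap, and its mean difference was 0.71 ± 0.10 (adjusted p = 1.22e-05). A second Sdhd probe set gave 0.79 ± 0.10. Sdhc differed by 0.53 ± 0.08 and Sdhb by 0.41 ± 0.06, both in 9 of 9 lysates. Sdha differed by -0.06 ± 0.10 (adjusted p = 0.634).

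In complex III the core protein Uqcrc1 (0.31 ± 0.08) and the Rieske protein Uqcrfs1 (0.40 ± 0.07) were higher, each in 8 of 9 lysates, and all 4 small subunits were lower. Uqcrh, the hinge protein, read 2190, 1981 and 2229 in total and 1216, 635 and 635 in polysomal RNA at FD19, then 1785, 2035 and 1926 against 1384, 555 and 561 at FD22, and 1759, 1634 and 2040 against 1581, 1022 and 976 at P1. Lysate 1 had the highest polysomal signal at each stage, and total exceeded polysomal signal in 9 of 9 lysates. The mean difference was -1.13 ± 0.16 (adjusted p = 2.34e-05). By stage it was -1.43, -1.33 and -0.63, the last with an adjusted p of 0.133. Uqcr10 differed by -0.92 ± 0.08 in 9 of 9 lysates. Uqcrq (-0.44 ± 0.11) and Uqcr11 (-0.41) had smaller differences, and the call of Uqcrq was lost with median centring. For the core protein Uqcrc2 the probe sets did not give the same result, at 0.05 ± 0.08 for the brighter and -0.60 ± 0.19 (adjusted p = 0.0175) for the other.

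Within complex IV, 8 of 16 genes were thus called lower. Cox8a, the ubiquitous form of subunit 8, read 2774, 2073 and 2467 in total and 1405, 802 and 968 in polysomal RNA at FD19. At FD22 it read 2384, 2040 and 2277 against 1663, 872 and 742, and at P1 2337, 2088 and 2224 against 1178, 907 and 764. No polysomal array reached a total array. The mean difference was -1.20 ± 0.14 (adjusted p = 1.68e-06), a 2.29-fold lower signal, and it was -1.23, -1.12 and -1.24 by stage.

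Cox7c (-0.87 ± 0.10) and Cox7b (-0.46 ± 0.09) were also lower in 9 of 9 lysates. Cox6b1 (-0.39), Cox6a1 (-0.31) and Cox6c (-0.21) were called lower, but not with median centring. The testis-type isoform Cox6b2 differed by -1.10 ± 0.14, and Cox7a2l, a protein that joins complexes III and IV, by -0.52. The larger subunits Cox4i1 (-0.05 ± 0.07), Cox5a (0.12 ± 0.15) and Cox5b (0.06 ± 0.09) were not called, nor were the isoforms Cox4i2 (-0.08 ± 0.20), Cox6a2 (-0.03 ± 0.20), Cox7a1 (-0.01 ± 0.11) and Cox8b (-0.60 ± 0.32). Ndufa4 was higher (0.29) and Ndufa4l2 lower (-0.43), and each call was lost in some alternatives.

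In the ATP synthase the parts differed. The F1 head had 3 of 5 genes higher, namely Atp5f1d (0.53 ± 0.08), Atp5f1c (0.36 ± 0.07) and Atp5f1b (0.17 ± 0.06, a call lost in 8 of 19 alternatives), and 1 lower, Atp5f1e (-0.93 ± 0.08). The stator stalk had 2 of 4 higher, Atp5po (0.62 ± 0.08) and Atp5pb (0.30), and none lower. The membrane part had 1 of 6 higher, Atp5mc3 (0.37 ± 0.08), and 4 lower. The lowest of those, Atp5mpl, a small membrane protein, read 898, 913 and 936 in total and 422, 398 and 402 in polysomal RNA at FD19, which were well apart, and its mean difference was -1.05 ± 0.10 (adjusted p = 1.43e-07). The inhibitor Atp5if1 was not called on its brighter probe set (-0.15 ± 0.12) and was lower on the other (-0.66 ± 0.13).

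**Figure D3:**
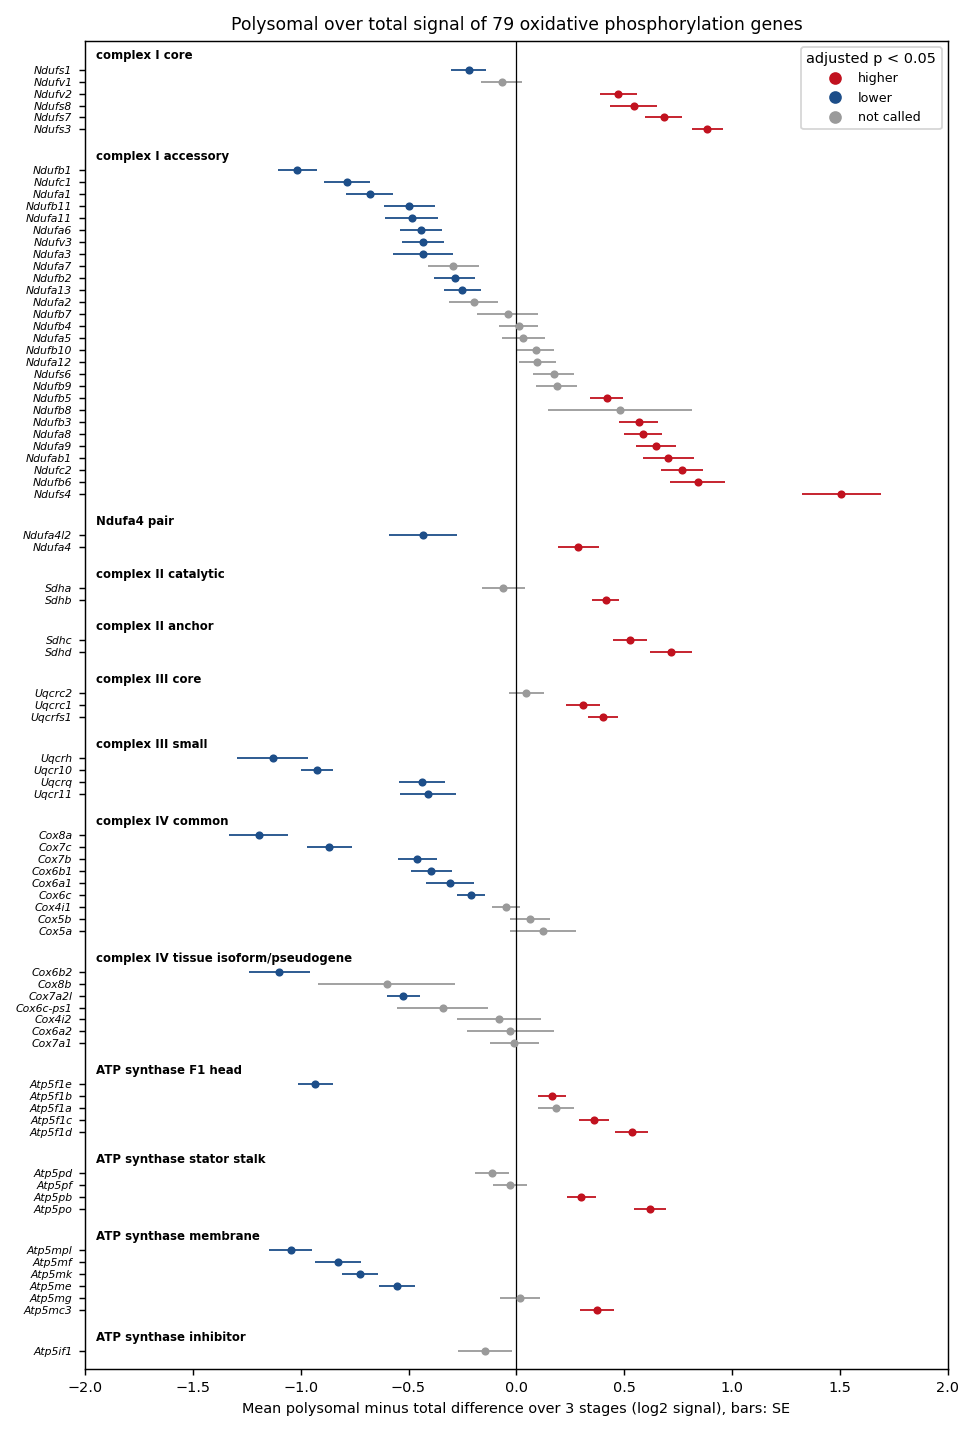
Mean polysomal minus total difference over 3 stages (horizontal axis, log2 signal) of the 79 tested genes by role; each point is 1 gene, bars are SE and colours give the call at an adjusted p under 0.05. Complex IV has 8 genes called lower, down to Cox8a at -1.20, and 0 higher (1 higher with quantile normalization or median centring), and Ndufs4 is the farthest point above 0 at 1.50.

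**Figure D4:**
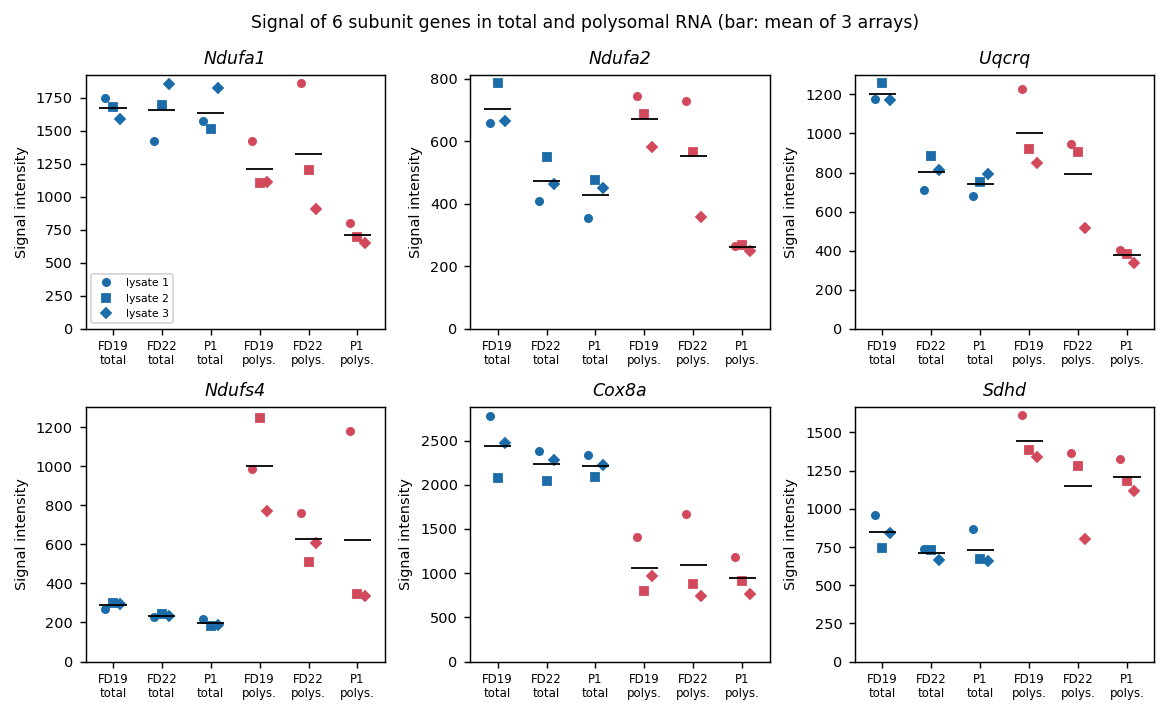
Signal intensity (linear, vertical axis from 0) of member genes in total and polysomal RNA at each stage. Ndufs4, Cox8a and Sdhd had wide mean polysomal minus total differences. Ndufa1, Ndufa2 and Uqcrq were called lower in polysomal RNA at P1 than at FD22. Each point is 1 array and each bar the mean of 3 arrays. Ndufs4 is higher in polysomal RNA in every lysate and Cox8a lower in every lysate.

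Stage by stage the same contrast gave 14 higher and 17 lower at FD19 (13% and 9.53% of all genes), 20 and 13 at FD22 (9.71% and 6.86%) and 23 and 19 at P1 (12% and 8.52%). These comparisons and the mean share their arrays. With median centring the splits were 19 and 12, 27 and 9, and 26 and 9. Leaving out a lysate of the stage itself moved the counts most: the FD19 count of 31 became 20, 16 and 17 without lysates 1, 2 and 3, the FD22 count of 33 became 15 and 14 without lysates 2 and 3 (and 15 with the arrays of FD22 alone), and the P1 count of 42 became 27 and 21 without lysates 1 and 2. With FD22 lysate 3 left out, neither Ndufs4 nor Uqcrh nor Cox8a was called at FD22.

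Whether this difference itself changed between stages was tested directly. The main model has no term for the lysate that total and polysomal arrays share, and with the lysate as a block it also called 0 members in both intervals. From FD19 to FD22 limma called 0 of 79 members in either direction, as did every alternative, and 0% of all genes. The median change was 0.11 against -0.01, and 1 member, Ndufb1 (0.56), had an unadjusted p under 0.05. From FD22 to P1 limma called 0 members higher or lower, against 0% and 0.0259% of all genes, and 1 alternative called 1 member. Unadjusted p was under 0.05 for 7 members, all with a lower polysomal minus total difference at P1: Uqcrq (-0.90 ± 0.26, adjusted p = 0.496), Ndufa2 (-0.86), Ndufa1 (-0.81), Ndufb1 (-0.65), Ndufb2 (-0.65), Ndufs6 (-0.64) and Ndufb5 (-0.55). These genes are also among those lower in polysomal RNA at P1, and both results use the same polysomal arrays. The share of all genes with an unadjusted p under 0.05 is not given here, so the 7 were not set against it. For Uqcrq the polysomal minus total difference was -0.28 at FD19, -0.07 at FD22 and -0.97 at P1, and for Ndufa1 it was -0.47, -0.38 and -1.19.

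Other genes of mitochondrial energy metabolism were counted in 4 lists, to be read against the 10.3% of all genes called lower in total RNA. In total RNA from FD19 to FD22, the carriers and remaining chain subunits had 3 of 11 genes lower and 0 higher (median -0.31). They were cytochrome c1, Cyc1 (-0.68 ± 0.14, adjusted p = 0.00215), the ADP/ATP carrier Slc25a4 (-0.60) and the phosphate carrier Slc25a3 (-0.42). Assembly factors had 5 of 45 lower (-0.23), among them Tmem126b (-0.73), a share near that background. Regulators of mitochondrial biogenesis had 2 of 16 lower (-0.18), also near it, the mitochondrial DNA factor Tfam (-0.67 ± 0.13, adjusted p = 0.00147) and the coactivator Pprc1 (-0.75). Pyruvate dehydrogenase and citric acid cycle genes had 3 of 17 lower (-0.22), Mdh2 (-0.56), Sucla2 (-0.47) and Idh2 (-0.46). In that comparison limma called 0 genes of the 4 lists higher, and 1, a regulator, had an unadjusted p under 0.05 with a value above 0. From FD22 to P1 in total RNA the only gene called in the 4 lists was the assembly factor Ndufaf4, at 0.62.

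In polysomal RNA from FD19 to FD22, 3 of 11, 5 of 45, 4 of 16 and 0 of 17 genes of these lists were called lower and 0 higher by limma, against 9.56% of all genes lower. In the last of them 1 gene on each side had an unadjusted p under 0.05. From FD22 to P1 in polysomal RNA all genes had 4.74% higher and 5.79% lower. Among the 11 carriers and chain subunits, Slc25a3 (0.51) and Ucp2 (0.87) were higher and 0 lower. The 45 assembly factors had 1 gene higher and 4 lower, with Uqcc5 the lowest (-1.09). Of the 16 regulators 1 was higher, Pprc1 (0.67), and 0 lower. The pyruvate dehydrogenase and citric acid cycle list of 17 genes had Dld (0.51) higher and the pyruvate carrier Mpc1 (-1.07) lower. Against total RNA over the stages, that list had 8 of 17 genes higher in large polysomes and 1 lower, led by Idh3b (0.99). The assembly factors had 13 of 45 higher, among them Nubpl (0.81), and 17 lower, among them Cox14 (-1.18) and Coa5 (-1.16), where all genes had 24.9% higher and 22.2% lower.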

How the data were processed

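The deposited table holds signal intensity per probe set on the Rat Genome 230 2.0 array for 18 arrays; the authors made it with GCOS 1.4, per the submitters' processing notes, and the algorithm is not given in the sources used here. The values have a common 2% trimmed mean of 150.0. Probe sets were named from the platform annotation (20826 had 1 gene, 436 several and 9780 none, besides 57 controls). From the intensities log2(signal + 5.5) was computed, the constant being the 10th percentile, and probe sets above 40.8, the 40th percentile, in at least 3 arrays were kept. A gene was represented by its brightest probe set. All arrays entered 1 model of 6 group means (R 4.3.3, limma 3.58.1, with a trend of the variance on intensity), which left 12 residual degrees of freedom and gave 10 comparisons. The fit was tested on simulated data. Precision is limited by having 3 arrays a group. The members and lists were chosen with earlier results of these data known. Named by rule were up to 4 called members a direction and comparison whose arrays did not overlap (for the mean over stages, with all lysates on the same side), and a set of isoform and core genes. Total and polysomal arrays of a lysate deviated together (correlations of 0.186 to 0.488 in 9 of 9), as the design implies. Numbers were taken to pair arrays of different stages where every correlation was over 0.1, as in the polysomal arrays of FD19 with FD22; in the other intervals 1 or more correlations were lower (lowest -0.03). Alternatives were the constant, the filter, quantile normalization, median centring, no variance trend, only the arrays compared, the mean of a gene's probe sets, the replicate block and leaving out lysates.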

Additional observations from a re-analysis of the deposited data

How the results depend on the processing

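Of 124 pairs of a named gene and a comparison, 55 kept their call and direction in all settings that could be run, and 0 changed sign. The counts of members called that moved by more than 1.5 times were these. For total RNA between FD19 and FD22 the count of 22 became 14 with quantile normalization and 12 without the variance trend. For polysomal RNA over that interval the count of 5 became 3 with no filter, 3 without the variance trend, 3 with only the arrays compared and 16 with the replicate block. With only the arrays compared, polysomal RNA between FD22 and P1 gave 1 in place of 10 and the polysomal minus total difference at FD22 gave 15 in place of 33. With the replicate block, which for the polysomal minus total difference is the lysate, the other counts were 30 and 0 for total RNA, 12 for polysomal RNA between FD22 and P1, 36, 38 and 43 for the polysomal minus total difference by stage, 56 for its mean and 0 for each of its changes, and the block ended no call of a named gene. The cause of these shifts was not tested, except that fewer arrays leave fewer residual degrees of freedom. Leaving out lysates gave 5 to 21 and 0 to 0 for total RNA over the earlier and later interval, 2 to 9 and 4 to 17 for polysomal RNA, 16 to 40, 14 to 34 and 21 to 46 for the difference at FD19, FD22 and P1, 46 to 57 for its mean, and 0 to 0 and 0 to 1 for its changes. A lone array never stood for a group in these fits. Relating the polysomal minus total difference to protein length was planned and not run, since no protein table was used here. Signals near the constant, as of Cox8b, limit the precision of its difference.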
